A study of Mus musculus with 8 samples.

Results

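The TGF-beta and bone morphogenetic protein (BMP) pathway was examined in the corneas of 2 inbred mouse strains through 48 of its genes, chosen by name from the 54532 genes of the expression table. They code for ligands, proteins that hold or block ligands, receptors, Smad transducers and transcriptional targets. Total RNA was sequenced for 4 corneas of each of the BALB/cN strain (labelled Balb/c) and the C57BL/6N strain. All corneas were naive, that is, without surgery or treatment, and all donors were male. The study asked which genes differ between strains whose corneas differ in their lymphatic vessels. Nothing states that the corneas of a strain came from separate animals, so p-values measure the spread between these corneas.

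TGF-beta ligands are secreted in a latent complex and, once released, bind a type II receptor that activates a type I receptor, which phosphorylates Smad2 and Smad3. BMP ligands act through the same receptor families on Smad1, Smad5 and Smad9, and both branches share Smad4. In the cornea the pathway is known for its part in stromal wound healing and scarring, in the epithelium and in vessel growth.

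The values deposited were regularized log (rlog) values, which are on a log2 scale, are normalized for library size and are shrunken towards the mean of the gene where reads are few. Differences are BALB/cN minus C57BL/6N. Only genes whose rlog values averaged 0 or more entered the limma fit, and a gene was called at a Benjamini-Hochberg adjusted p-value of 0.01 or less. Read counts were recovered by inverting the transformation and gave totals of 36.7 to 41.2 M for BALB/cN libraries and 29.7 to 37.0 M for C57BL/6N libraries. Normalized reads below are these counts divided by the size factor of the library, and they are approximate for genes above about 1000 reads. Some corneas stood apart in their tissue. BALB/cN cornea 2 and C57BL/6N corneas 3 and 4 had mean rlog values of 11 to 11.6 over 10 markers of stromal keratocytes, against 13.1 to 13.8 in the other corneas. BALB/cN corneas 1 and 4 carried lens transcripts (7.66 and 6.83 over 8 markers, against 4.66 to 5.39 elsewhere) and pigment cell transcripts (9.36 and 10.2 over 6 markers, against 5.80 to 7.81 elsewhere). The corneal epithelium markers were high in every cornea (15.7 to 16.0 over 9 markers). In whole corneas, fewer cells of a type and less RNA per cell cannot be told apart.

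Of the 48 genes, 47 passed the filter and 3 were called (6.38%), against 5.74% of all 25402 genes tested. Bmp7 and Tgfb1 were higher in BALB/cN corneas, where 2.83% of all genes tested were called higher, and Bmp6 was lower, where 2.91% were called lower. All 3 code for ligands. None of the receptors, Smads, antagonists, latent binding proteins or Id genes was called. The strains did not overlap in any cornea for 8 of the 47 genes (17.0%), against 18.3% of all genes tested. These were the called genes and Bmpr1a, Bmpr2, Smad2, Smad3 and Smad6. The median difference of the 47 genes was 0.11, against 0.01 over all genes tested, and 37 of them had a higher mean in BALB/cN corneas (78.7%, against 52.8% of all genes tested). With the keratocyte marker mean as a covariate the median was 0.058, against 0.0037 over all genes tested. In that fit 33 of the 47 genes were higher in BALB/cN corneas (70.2%), and 28 were when the corneas low in keratocyte transcripts were left out. For these fits the share of all genes that were higher is not given here, so the counts are only a description.

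**Figure D1:**
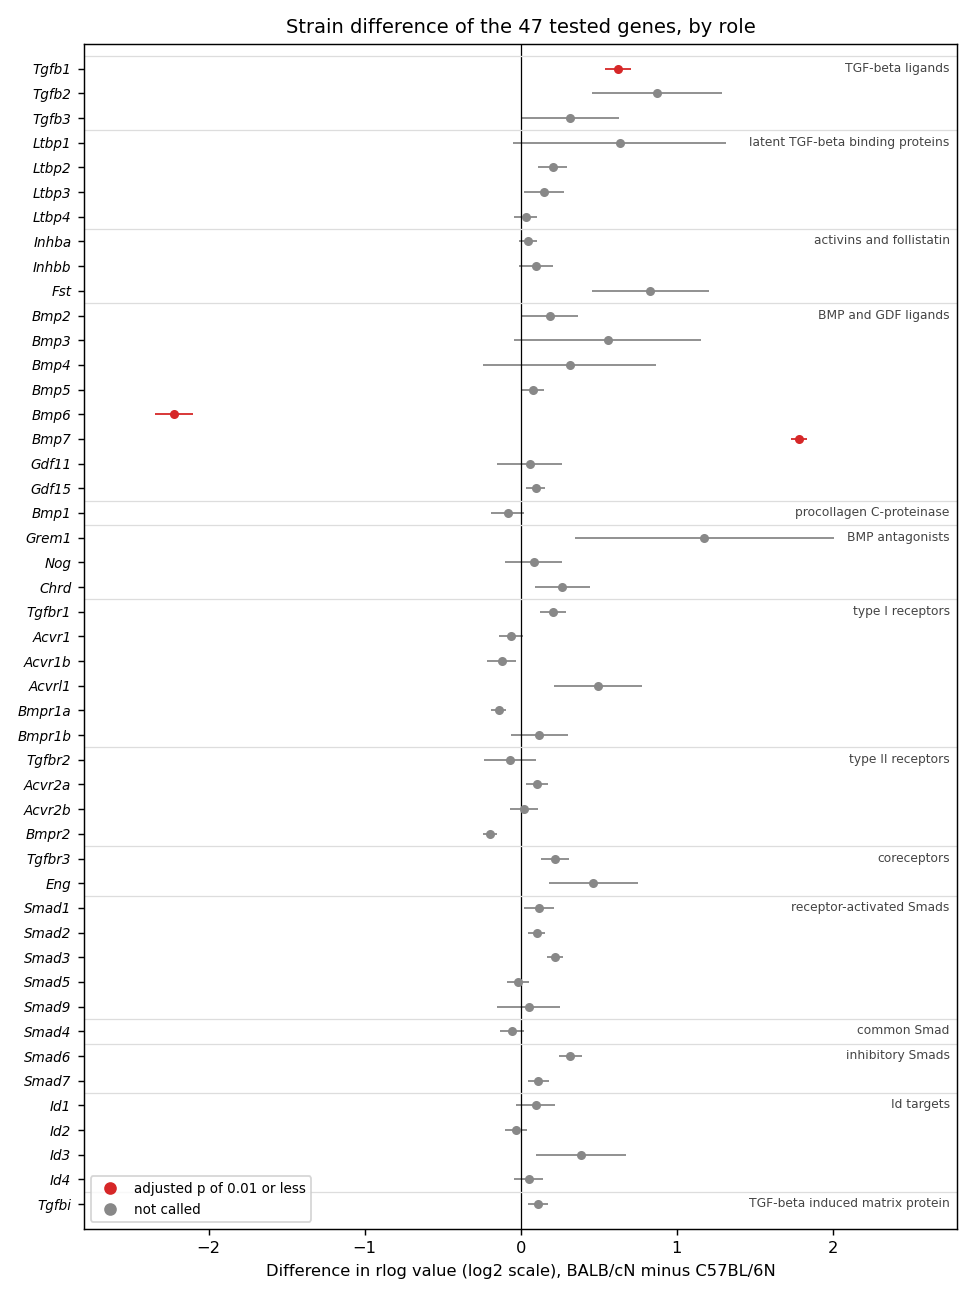
Difference in rlog value between the strains (horizontal axis, log2 scale, BALB/cN minus C57BL/6N) for the 47 genes tested, ordered by role. Points are limma estimates with bars of 1 standard error and called genes are red. Bmp6 lies at -2.22, Bmp7 at 1.78 and Tgfb1 at 0.62, while every receptor and Smad lies between -0.20 and 0.50.

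Bmp7 and Bmp6 differed in opposite directions and by the largest amounts of the 47 genes on the rlog scale. Bmp7, a BMP ligand known from eye and kidney development, lies on chromosome 2 (GRCm38, chr2:172868012-172940321, minus strand). It had 3639, 4019, 3960 and 4035 normalized reads in BALB/cN corneas 1 to 4, and 734, 771, 755 and 678 in C57BL/6N corneas 1 to 4. Each strain was tight and the groups lay far apart. The level was 5.33-fold higher in BALB/cN corneas (3914 ± 186 against 735 ± 40.4, SD, n = 4), and leaving out each cornea in turn gave 5.2- to 5.45-fold. On the rlog scale the difference was 1.78 ± 0.053 (SE, adjusted p = 7.31e-08, limma). The exact two-sided permutation test gave p = 0.0286, the smallest that 4 against 4 corneas allow.

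Bmp6, a ligand best known for raising hepcidin in iron balance, lies on chromosome 13 (GRCm38, chr13:38345107-38500302, plus strand). It had 34.3, 17.5, 31.1 and 29.1 normalized reads in BALB/cN corneas 1 to 4, and 389, 389, 377 and 579 in C57BL/6N corneas 1 to 4. C57BL/6N cornea 4 stood above the other corneas of its strain, and even the lowest C57BL/6N cornea was far above the highest BALB/cN cornea. The level was 15.5-fold higher in C57BL/6N corneas (433 ± 97.2 against 28.0 ± 7.32, SD, n = 4), and 13.8- to 16.8-fold when any 1 cornea was omitted. The rlog difference was -2.22 ± 0.12 (SE, adjusted p = 3.61e-06, limma; exact two-sided permutation p = 0.0286), which is smaller than the read ratio because of the shrinkage. The exons of Bmp6 share 224 bases with those of Txndc5, a disulfide isomerase gene on the other strand, and the strand setting of the counting is not given in the sources used here. Txndc5 had 2703 ± 149 normalized reads in BALB/cN corneas and 2700 ± 590 in C57BL/6N corneas (SD, n = 4), a difference of 0.02 ± 0.11 (SE).

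Tgfb1, the best known of the TGF-beta ligands and a driver of the change of keratocytes into myofibroblasts, lies on chromosome 7 (GRCm38, chr7:25687002-25705077, plus strand). It had 3208, 3138, 3906 and 3497 normalized reads in BALB/cN corneas 1 to 4, and 2093, 2218, 1803 and 1619 in C57BL/6N corneas 1 to 4. The lowest BALB/cN cornea was above the highest C57BL/6N cornea. The level was 1.78-fold higher in BALB/cN corneas (3437 ± 349 against 1933 ± 272, SD, n = 4; 1.69- to 1.87-fold when any 1 cornea was omitted), and the rlog difference was 0.62 ± 0.085 (SE, adjusted p = 0.00126, limma). This call was less firm than the others: without BALB/cN corneas 1 and 4, the difference was 0.65 with an adjusted p of 0.0288.

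**Figure D2:**
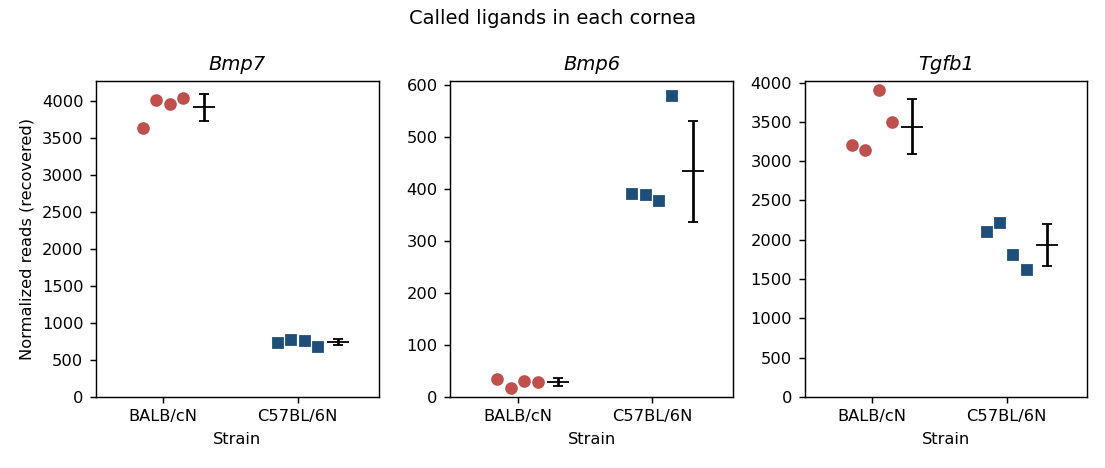
Normalized reads (vertical axes, linear and starting at 0) of Bmp7, Bmp6 and Tgfb1 in each of 4 BALB/cN (circles) and 4 C57BL/6N (squares) corneas, with the mean and SD of each strain at the right of its points. No cornea of a strain reaches the range of the other strain, and as a ratio the gap is narrowest for Tgfb1, between 2218 and 3138.

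The bases before the start of Tgfb1 are shown because it was the called gene whose reference window lay wholly outside its exons. The table of reference windows held an entry for 35 of the 48 genes but none for Bmp7, and the window of Bmp6 met an exon of the annotation. The 250 bases before the RefSeq start of Tgfb1 (GRCm38.p6, chr7:25686752-25687001, plus strand, 5′ to 3′) are given with each GGGCGG, or its complement CCGCCC, in capitals. This is the letter string of the GC box that Sp1 binds.
Tgfb1: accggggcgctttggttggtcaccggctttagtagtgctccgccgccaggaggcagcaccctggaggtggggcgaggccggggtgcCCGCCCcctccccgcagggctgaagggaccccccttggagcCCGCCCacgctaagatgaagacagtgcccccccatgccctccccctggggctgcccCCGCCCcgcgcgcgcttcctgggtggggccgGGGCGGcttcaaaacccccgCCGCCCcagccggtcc
The window holds 5 such strings over both strands, 21 CpG dinucleotides and 75.2% G and C. Of all 32851 windows, 32.7% hold the string on at least 1 strand, and their median share of G and C is 52.4%. The sequence is that of the reference strain, so it shows no difference between the strains.

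The called ligands were set beside the markers of other cell types. With the keratocyte marker mean as a covariate, the differences were 1.78 for Bmp7, -2.21 for Bmp6 and 0.57 for Tgfb1, and all 3 stayed called (adjusted p = 6.71e-09, 7.81e-07 and 9.5e-05, limma). Without the 3 corneas low in keratocyte transcripts they were 1.75, -2.06 and 0.53 (adjusted p = 6.12e-05, 0.000136 and 0.00869). Without BALB/cN corneas 1 and 4, Bmp7 and Bmp6 stayed called at 1.81 and -2.29 (adjusted p = 6.03e-05 and 0.000662). The conjunctiva list did separate the strains, with a mean of 6.75 to 7.29 in BALB/cN corneas and 7.32 to 7.56 in C57BL/6N corneas. Of its 5 markers, the keratins Krt13, Krt4 and Krt19 were called lower in BALB/cN corneas (differences of -2.51, -1.17 and -0.97), while Muc5ac and Krt8 had higher means there (2.19 and 0.41, not called). None of the 5 was at 0 in all corneas, and their part in the differences of the ligands was not tested. The study recalibrated the p-values of its count model with fdrtool and still reported genes called at 0.01. Here the limma statistics were instead divided by the standard deviation of an empirical null (1.68), set by their median size over all genes tested. With this different recalibration no gene was called, and the adjusted p was 0.157 for Bmp7, 0.223 for Bmp6 and 0.516 for Tgfb1. At an unadjusted p under 0.05, 1690 of the 25402 genes tested passed that recalibration. Among them were 3 of the 47 pathway genes (Bmp7, Bmp6 and Tgfb1) and 8 of the 84 further genes of the pathway described below.

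The other TGF-beta ligands overlapped between the strains. Tgfb2, which is prominent in the ocular fluids, had 1509, 473, 872 and 1730 normalized reads in BALB/cN corneas 1 to 4 and 896, 879, 209 and 194 in C57BL/6N corneas 1 to 4. The low values were those of BALB/cN cornea 2 and C57BL/6N corneas 3 and 4, the corneas low in keratocyte transcripts. Its difference of 0.88 ± 0.42 (SE) was not called (adjusted p = 0.242, limma; exact two-sided permutation p = 0.2), but with the keratocyte covariate it was 0.52 and called (adjusted p = 0.00178). It was not called without the 3 corneas low in keratocyte transcripts (0.42, adjusted p = 0.291) or without BALB/cN corneas 1 and 4 (0.39, adjusted p = 0.786). Tgfb3 had 172 to 475 normalized reads in BALB/cN corneas and 96.3 to 445 in C57BL/6N corneas, with a difference of 0.32 ± 0.32 (SE) that was not called. Per length, Tgfb1 was the most abundant of the TGF-beta ligands in every cornea. It made up 61.2% to 82.4% of their summed normalized reads per kb of exon in BALB/cN corneas and 60.3% to 83.8% in C57BL/6N corneas. Those shares were above 80% in the 3 corneas low in keratocyte transcripts, where Tgfb2 made up 8.26% to 10.8%. The summed TGF-beta ligand level was 981 ± 160 normalized reads per kb in BALB/cN corneas and 558 ± 173 in C57BL/6N corneas (SD, n = 4).

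The latent TGF-beta binding proteins hold the latent ligand in the matrix. None of the 4 was called, 0 had an unadjusted p under 0.05, and 0 were called with limma voom on the recovered reads. Ltbp1 had 2049, 517, 1941 and 2293 normalized reads in BALB/cN corneas 1 to 4 and 3000, 2626, 173 and 229 in C57BL/6N corneas 1 to 4. It was highest in the C57BL/6N corneas rich in keratocyte transcripts and lowest in the C57BL/6N corneas poor in them. Its difference of 0.64 ± 0.68 (SE, adjusted p = 0.619, limma; exact two-sided permutation p = 0.457) became 0.053 with the keratocyte covariate and -0.33 without the 3 corneas low in keratocyte transcripts (adjusted p = 0.0519). Ltbp3 and Ltbp4 were abundant, at 598 ± 49.7 and 629 ± 37.2 normalized reads per kb in BALB/cN corneas and 533 ± 138 and 613 ± 80.2 in C57BL/6N corneas (SD, n = 4). Ltbp2 had only 4.2 to 33.9 normalized reads in any cornea.

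Among activin subunits and their binding protein, follistatin had by far the most reads. Follistatin (Fst), which binds and blocks activins, had 1934, 670, 1190 and 1335 normalized reads in BALB/cN corneas 1 to 4 and 1024, 1106, 295 and 224 in C57BL/6N corneas 1 to 4. Within each strain the corneas low in keratocyte transcripts were the lowest. The difference of 0.83 ± 0.38 (SE) was not called (adjusted p = 0.22, limma; exact two-sided permutation p = 0.143), while with the keratocyte covariate it was 0.51 and called (adjusted p = 0.00402). Without the 3 corneas low in keratocyte transcripts it was 0.34 and not called (adjusted p = 0.256), and without BALB/cN corneas 1 and 4 it was 0.52 and not called (adjusted p = 0.699). The activin beta subunit genes were weakly expressed, with Inhba at 2.53 to 16.3 and Inhbb at 65.7 to 121 normalized reads, and neither was called (differences of 0.046 and 0.099).

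The composition of the BMP ligands per length differed between the strains along with Bmp7 and Bmp6. Bmp7 stood at 974 ± 46.2 normalized reads per kb in BALB/cN corneas and 183 ± 10.1 in C57BL/6N corneas, and Bmp6 at 7.17 ± 1.88 and 111 ± 24.9 (SD, n = 4). The ratio of Bmp7 to Bmp6 per kb was 103, 223, 124 and 135 in BALB/cN corneas 1 to 4, and 1.83, 1.93, 1.94 and 1.14 in C57BL/6N corneas 1 to 4. Bmp6 thus made up 0.384% to 0.540% of the summed reads per kb of Bmp2 to Bmp7 in BALB/cN corneas and 8.94% to 33.8% in C57BL/6N corneas. These shares also depend on Bmp3. In C57BL/6N corneas 1 and 2 Bmp3 made up 71.7% and 67.3%, and Bmp6 8.94% and 9.80%. In C57BL/6N corneas 3 and 4, low in keratocyte transcripts, Bmp3 made up 19.8% and 22.9%, and Bmp6 25.8% and 33.8%. The summed level of Bmp7 and Bmp6 was 981 ± 45.0 normalized reads per kb in BALB/cN corneas and 294 ± 16.1 in C57BL/6N corneas (SD, n = 4). Apart from the part of Bmp3 in the shares, these are the called differences seen on another scale, and they were not tested again.

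**Figure D3:**
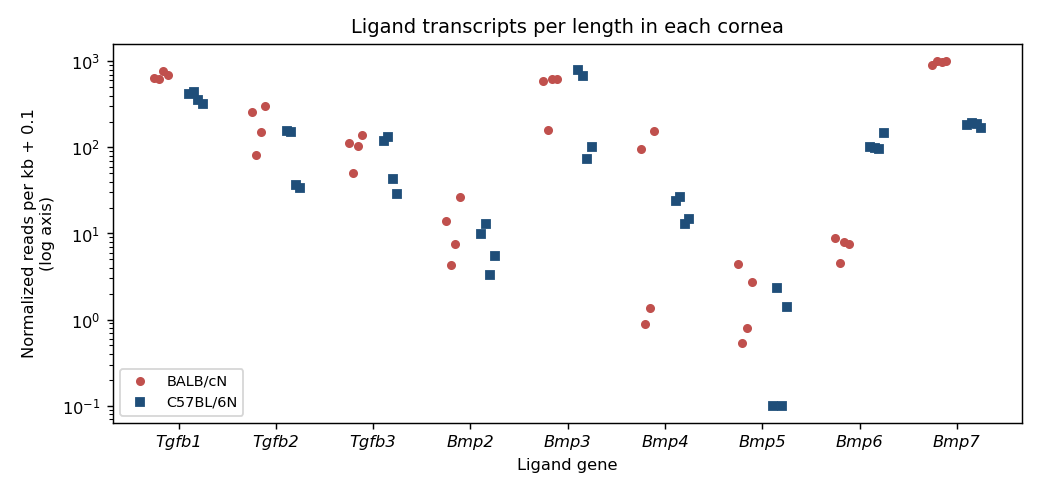
Normalized reads per kb of exon, plus 0.1, on a log axis for the TGF-beta ligand genes and Bmp2 to Bmp7 in each BALB/cN (circles) and C57BL/6N (squares) cornea. Bmp7 and Bmp6 separate the strains in opposite directions, Bmp3 splits the corneas within each strain, and Bmp4 is both highest and lowest in BALB/cN corneas.

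Bmp3, a BMP family member that opposes other BMPs, was the other abundant ligand. It had 4429, 1166, 4610 and 4650 normalized reads in BALB/cN corneas 1 to 4 and 5920, 5063, 547 and 742 in C57BL/6N corneas 1 to 4. Within each strain it was thus lowest in the corneas low in keratocyte transcripts, and it spanned fewer rlog units than the keratocyte mean. Its difference of 0.56 ± 0.60 (SE, adjusted p = 0.62, limma; exact two-sided permutation p = 0.429) became 0.048 with the keratocyte covariate and -0.21 without the 3 corneas low in keratocyte transcripts (adjusted p = 0.109). Bmp4, a ligand with roles in eye and vessel development, had 215, 1.75, 2.82 and 344 normalized reads in BALB/cN corneas 1 to 4 and 53.0, 59.0, 29.1 and 32.8 in C57BL/6N corneas 1 to 4. The high BALB/cN corneas were those with lens and pigment transcripts, and the others were below every C57BL/6N cornea. Its difference was 0.31 ± 0.55 (SE, adjusted p = 0.78, limma) over all corneas and -0.86 without BALB/cN corneas 1 and 4 (adjusted p = 0.0235). Neither passed the threshold.

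The remaining ligands were scarce. Bmp2 had 11.4 to 93.0 normalized reads, Gdf11 had 35.4 to 140, and Bmp5 and Gdf15 had at most 17.1 and 18.4, with 0 reads in C57BL/6N corneas 1 and 3 for both. For those corneas a count of 0 allows up to 3 reads. None of these 4 genes was called, and their rlog differences, which are shrunken where reads are few, lay between 0.058 and 0.19. The ratios of mean normalized reads, BALB/cN over C57BL/6N, were 1.66 for Bmp2, 0.98 for Gdf11, 2.27 for Bmp5 and 3.98 for Gdf15. Gdf10 had at most 4 reads in any cornea and was the one gene that did not pass the filter. Bmp1, which despite its name is a proteinase that cuts procollagen and chordin, had 1551 ± 190 normalized reads in BALB/cN corneas and 1690 ± 300 in C57BL/6N corneas (SD, n = 4; difference of -0.084, not called).

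The secreted BMP antagonists Grem1, Nog and Chrd bind BMPs and keep them from their receptors. None was called, 0 of the 3 had an unadjusted p under 0.05, and 0 were called with voom. Grem1, which codes for gremlin, had 397, 3.5, 0 and 599 normalized reads in BALB/cN corneas 1 to 4 and 15.3, 3.0, 63.2 and 3.18 in C57BL/6N corneas 1 to 4. Only BALB/cN corneas 1 and 4, which carried the lens and pigment transcripts, were above 100. The difference of 1.18 ± 0.83 (SE, adjusted p = 0.437, limma; exact two-sided permutation p = 0.429) turned to -0.53 without those corneas (adjusted p = 0.577). Nog (noggin) had 52.4 to 144 normalized reads and Chrd (chordin) 26.5 to 105, with differences of 0.083 and 0.27. The strains overlapped for both.

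**Figure D4:**
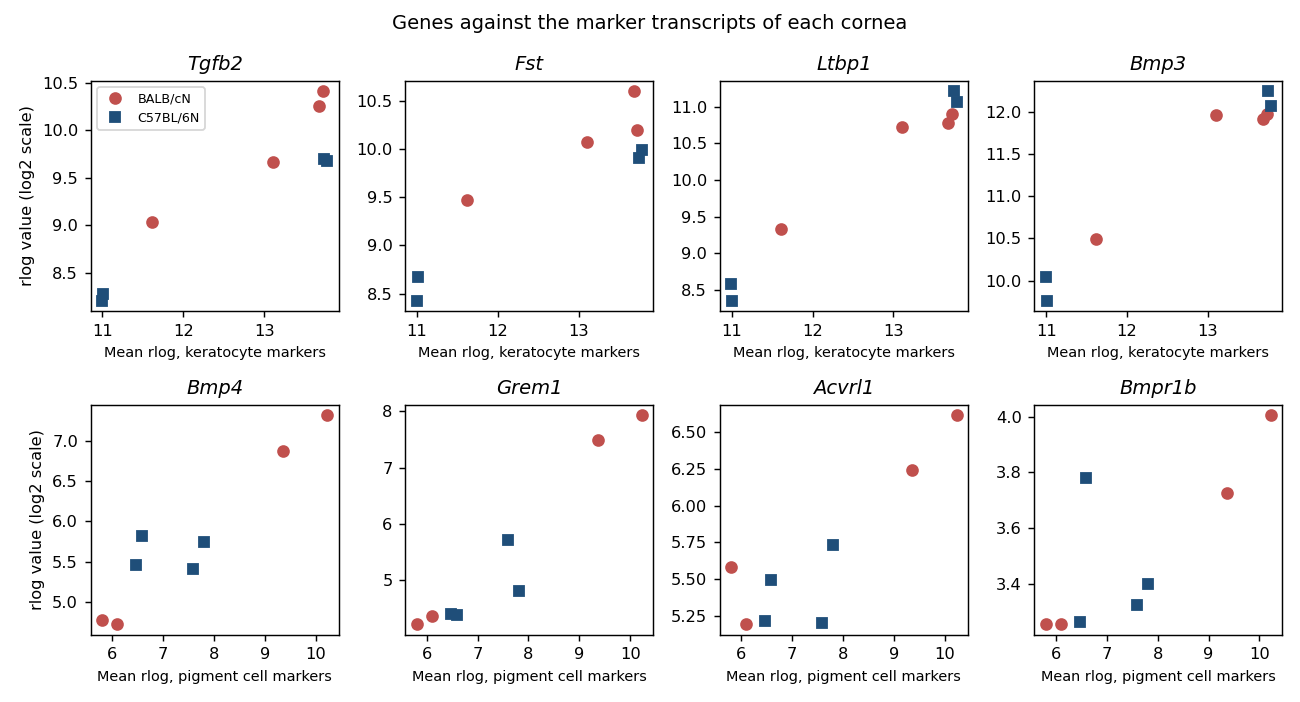
The rlog value of a gene (vertical axes, log2 scale) against the mean rlog value of the keratocyte markers (top row) or pigment cell markers (bottom row) in each BALB/cN (circles) and C57BL/6N (squares) cornea. Tgfb2, Fst, Ltbp1 and Bmp3 are low in the 3 corneas whose keratocyte mean is 11 to 11.6, and Bmp4, Grem1 and Acvrl1 are highest in the BALB/cN corneas whose pigment cell mean is 9.36 and 10.2.

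Several pathway genes followed the keratocyte markers across the corneas. In the fit with the covariate, 14 of the 47 genes had a slope of at least 0.2 rlog units per unit of the keratocyte mean (29.8%, against 5.93% of all genes tested), given here as a description over 8 corneas. The steepest were Ltbp1 (0.90), Bmp3 (0.79), Tgfb2 (0.55) and Fst (0.49). The 14 also included Bmp4 (0.39), Grem1 (0.30) and Acvrl1 (0.27), which were highest in BALB/cN corneas 1 and 4. Those corneas carried lens and pigment transcripts and also had high keratocyte means (13.7 in each). For these genes the slope cannot tell the tissues apart. In that fit 9 of the 47 genes were called, 7 higher and 2 lower in BALB/cN corneas (19.1%, against 9.4% of all genes tested). The 6 added were Tgfb2, Fst, Smad3, Smad6 and Tgfbi, which were higher, and Bmpr2, which was lower. None of these 6 was called without the covariate, and none was called when the 3 corneas low in keratocyte transcripts were left out instead (adjusted p between 0.0152 and 0.291, limma).

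The receptors and coreceptors had rlog differences between -0.20 and 0.50, which are shrunken for those with few reads. None of the 12 receptors and coreceptors was called, 4 had an unadjusted p under 0.05 in limma, and 0 were called with voom. The share of all genes at that unadjusted p is not given here, so the count is only a description. The closest to a call was Bmpr2, the type II receptor of BMPs, with 8745, 8381, 9481 and 9102 normalized reads in BALB/cN corneas 1 to 4 and 10696, 10734, 10148 and 11152 in C57BL/6N corneas 1 to 4. The strains did not overlap, and the difference was -0.20 ± 0.046 (SE, adjusted p = 0.0235, limma). Bmpr1a, a type I receptor of BMPs, was also lower in each BALB/cN cornea than in any C57BL/6N cornea, by a small amount that was not called (3167 ± 103 against 3614 ± 199 normalized reads, SD, n = 4; difference of -0.14 ± 0.049, SE, adjusted p = 0.104, limma). Tgfbr1, the type I receptor of TGF-beta, had a difference of 0.20 ± 0.083 and its partner Tgfbr2 one of -0.068 ± 0.16 (SE, neither called). Per length, Tgfbr1 was the most abundant receptor, at 1147 ± 172 normalized reads per kb in BALB/cN corneas and 945 ± 73.5 in C57BL/6N corneas, while Tgfbr2 stood at 173 ± 28.7 and 190 ± 62.9 (SD, n = 4).

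The receptors linked to vessels had low counts or wide spreads. Acvrl1, which codes for the endothelial receptor ALK1, had 120, 18.4, 44.2 and 191 normalized reads in BALB/cN corneas 1 to 4 and 57.1, 37.0, 17.7 and 19.1 in C57BL/6N corneas 1 to 4. Its difference was 0.50 ± 0.28 (SE, not called) and -0.020 without BALB/cN corneas 1 and 4, where the blood vessel marker mean was also highest (4.78 and 5.29, against 3.97 to 4.38 elsewhere). Endoglin (Eng), a coreceptor of endothelial cells, had a difference of 0.47 ± 0.29, and Tgfbr3, the coreceptor betaglycan, one of 0.22 ± 0.089 (SE, neither called). Bmpr1b had 0 to 47.5 normalized reads. The activin receptor genes Acvr1, Acvr1b, Acvr2a and Acvr2b differed by between -0.12 and 0.10, and none was called.

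Of the 8 Smad genes none was called, 2 had an unadjusted p under 0.05 in limma, and 0 were called with voom. Those with an unadjusted p under 0.05 were Smad3 and Smad6, and the share of all genes at that p is not given here. Smad3, which carries the TGF-beta signal to the nucleus, had 4988, 5222, 5177 and 4962 normalized reads in BALB/cN corneas 1 to 4 and 4365, 4431, 3905 and 3926 in C57BL/6N corneas 1 to 4. The groups did not overlap and the difference was 0.22 ± 0.050 (SE, adjusted p = 0.0195, limma). Smad6, an inhibitor that acts mainly on BMP signalling, had 968, 888, 1088 and 975 normalized reads in BALB/cN corneas 1 to 4 and 697, 640.5, 832 and 713 in C57BL/6N corneas 1 to 4. Its lowest BALB/cN value was close above its highest C57BL/6N value (difference of 0.32 ± 0.074, SE, adjusted p = 0.0226, limma). The TGF-beta transducer Smad2 differed by 0.10 without overlap of the strains, and the other inhibitor, Smad7, by 0.11. The BMP transducers Smad1, Smad5 and Smad9 differed by 0.11, -0.018 and 0.051, and the shared Smad4 by -0.056. None of these 6 was called. Smad4 was the most abundant Smad per length, at 945 ± 106 normalized reads per kb in BALB/cN corneas and 995 ± 110 in C57BL/6N corneas (SD, n = 4), and Smad9 the least, with 19.1 to 97.9 normalized reads in any cornea.

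The Id genes code for inhibitors of differentiation and are direct targets of BMP signalling in many cells. None of the 4 was called, 0 had an unadjusted p under 0.05, and 0 were called with voom. Id1 had 654, 724, 918 and 889 normalized reads in BALB/cN corneas 1 to 4 and 859, 800, 511 and 754 in C57BL/6N corneas 1 to 4, and the strains overlapped (difference of 0.096 ± 0.12, SE). Id2, the most abundant of them per length at 1754 ± 160 normalized reads per kb in BALB/cN corneas and 1805 ± 191 in C57BL/6N corneas (SD, n = 4), differed by -0.030, and Id4 by 0.050. Id3 had a difference of 0.39 ± 0.29 (SE), which was 0.15 with the keratocyte covariate. Tgfbi, a matrix protein induced by TGF-beta whose mutation causes human corneal dystrophies, was the most abundant of all 48 genes. It had 14109 ± 1022 normalized reads per kb in BALB/cN corneas and 12762 ± 1247 in C57BL/6N corneas (SD, n = 4; difference of 0.11 ± 0.062, SE, not called). The next most abundant gene was Id2.

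Further genes of the pathway were taken from 6 lists of 99 genes, of which 84 were tested and 7 called (4 higher and 3 lower in BALB/cN corneas), where 5.74% of all genes tested were called (2.83% higher and 2.91% lower). The median difference was 0.083 over the 84 genes, against 0.0077 over all genes tested. Col1a1 and Col1a2 of these lists are also keratocyte markers. None of 10 further ligands and 21 further extracellular inhibitors and regulators was called (2 and 4 had an unadjusted p under 0.05 in limma, and 0 were called with voom). For these counts too, the share of all genes at that unadjusted p is not given. Of 11 BMP responsive genes, Msx2 and Runx2 were called higher and Dlx5 lower. All 3 code for transcription factors of skeletal and ectodermal development. Msx2 had 252 ± 31.4 normalized reads in BALB/cN corneas and 74.8 ± 32.0 in C57BL/6N corneas (3.37-fold), and Runx2 had 1663 ± 157 and 748 ± 133 (2.22-fold). Dlx5 had 157 ± 38.2 in BALB/cN corneas and 566 ± 59.0 in C57BL/6N corneas (SD, n = 4), which was 3.62-fold higher in C57BL/6N. Their rlog differences were 1.0, 0.84 and -1.22.

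Of 14 TGF-beta responsive genes only Postn was called, with 11.1-fold more normalized reads in BALB/cN corneas (3676 ± 297 against 331 ± 212, SD, n = 4; difference of 2.70 ± 0.29, SE, adjusted p = 0.000312, limma). Postn codes for periostin, a matrix protein of remodelling connective tissue. Its lowest C57BL/6N values were in corneas 3 and 4, which were low in keratocyte transcripts, and with the keratocyte covariate the difference was 2.49. The myofibroblast genes Acta2 and Tagln had differences of 0.72 and 0.84 that were not called, and both were highest in BALB/cN corneas 1 and 4. Fn1, for fibronectin, had a difference of -0.47 that was not called (adjusted p = 0.036, limma), while with the keratocyte covariate it was -0.57 and called (adjusted p = 5.78e-05).

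Of 7 other receptors and coreceptors, Cd109, a coreceptor that restrains TGF-beta signalling, was called lower (difference of -0.73) and Rgma, a BMP coreceptor, higher (0.34, adjusted p = 0.01, limma, just inside the threshold). Of 21 intracellular regulators, the kinase gene Hipk2 was called lower (-0.35). Without BALB/cN corneas 1 and 4, only Dlx5 and Cd109 of these 7 genes were called. Hjv of the receptor list had no match in the annotation.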

How the data were processed

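Strand-specific total RNA libraries were made from 4 corneas of each strain. After trimming and removal of rRNA and tRNA, the authors mapped the reads to a pseudo-genome of each strain based on GRCm38, counted them on the exons of Ensembl genes and normalized the counts. The submitters' processing notes name TopHat2 2.1.1, HTSeq 0.7.1 and, for the authors' model, DESeq2 1.30. The authors deposited rlog values, which are log2 values with decimal commas, and 0 columns were left unused.

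From these, limma 3.58.1 in R 4.3.3 (lmFit, and eBayes with a variance trend) was run over the 25402 genes whose rlog values averaged 0 or more, with Benjamini-Hochberg adjustment and calls at 0.01. Single genes were compared with exact two-sided permutation tests (scipy 1.17.1). Since the table held no counts, limma replaced the study's count model. Read counts were recovered by fitting the constants of the transformation so that counts came out whole, with starting values set after trial fits. Of the values of 5661 genes left out of the fit (means of 20 to 1000 reads), 94.5% were whole to within 0.1, compared with 19.8% once a random fraction was added. The share was 70.0% at means of 1000 to 5000 reads and 24.9% above 5000. Recovery and limma were also run on simulated data, with outcomes not given here. The counts simulated for the recovery were built with the same transformation and left out the most abundant genes, so they cannot check the recovery of those. No molecular identifiers are stated, so reads may not be independent molecules. Reads per kb used the union of exons in GENCODE vM21.

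The genes and all lists were chosen with earlier results of these data known. Genes called, or with a difference of at least 0.5, were given by cornea, the others by range, and called genes of the further lists by their difference. Values of other genes given by cornea were chosen after they were seen. The alternatives were a robust fit, a fit with no variance trend, a mean of at least log2(10) or no filter, median centring, quantile normalization, an empirical null, the keratocyte marker mean as covariate, the replicate number as block, leaving out each cornea, and an adjusted p of 0.05. Voom on recovered reads and leaving out corneas by their lens, pigment or keratocyte transcripts were added after seeing the data.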

Additional observations from a re-analysis of the deposited data

Results flagged for a closer look

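In 5 of 94 groups of 4 corneas of a strain (47 genes in each strain), 1 cornea lay apart from the others by Dixon's criterion, where chance alone gives about 4.7. BALB/cN cornea 2, which was low in keratocyte transcripts, was low for Ltbp1 (rlog 9.33, others 10.7 to 10.9, gap over range of 0.882) and for Bmp3 (10.5, others 11.9 to 12, 0.963). C57BL/6N cornea 4 was high for Bmp6 (8.48, others 8.04 to 8.07, 0.918). BALB/cN cornea 1 was high for the coreceptor gene Tgfbr3 (12.8, others 12.4 to 12.5, 0.836), and C57BL/6N cornea 3 was low for the BMP transducer gene Smad5 (11.1, others 11.4 in each, 0.875). Without C57BL/6N cornea 4, Bmp6 stayed called at a difference of -2.12 (adjusted p = 9.61e-06, limma).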

How the results depend on the processing

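The calls of Bmp7 and Bmp6 held under every alternative listed under the processing except the empirical null, and that of Tgfb1 under every one except the empirical null, the replicate block and the fit without BALB/cN corneas 1 and 4. At an adjusted p of 0.05, 2842 genes were called in place of 1458, among them 6 of the 47 pathway genes (Smad3, Smad6 and Bmpr2 in addition) and 14 genes of the further lists in place of 7. The empirical null (standard deviation of 1.68) left 0 calls in each. After that recalibration of the limma p-values, 1690, 3 and 8 genes had an unadjusted p under 0.05. Voom called 1424, 3 and 7. The keratocyte covariate gave 2387, 9 and 13 calls. Median centring, which moved the median difference of all genes from 0.01 to -0.066, gave 958 calls over all genes. Without BALB/cN corneas 1 and 4 there were 447 calls over all genes, 2 of the 47 and 2 of the further lists, and without the 3 corneas low in keratocyte transcripts 852 over all genes. Leaving out each cornea in turn gave 953 (without C57BL/6N cornea 4) to 1163 calls over all genes, 3 of the 47 each time, and 5 to 6 of the further lists. The differences of Ltbp1, Bmp3 and Grem1, none of them called, reversed to -0.33 and -0.21 without the corneas low in keratocyte transcripts and to -0.53 without BALB/cN corneas 1 and 4. The cause of these shifts was not tested. Fits with fewer corneas also have fewer degrees of freedom, which bears on the calls and not on the sign of a difference.

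Nothing states that the replicate numbers pair the corneas. The deviations of same-numbered corneas correlated at 0.31, -0.53, -0.20 and -0.45, which cannot show whether they were handled together, since the corneas also differed in their tissue. With the replicate number as a block there were 554 calls over all genes, 2 of the 47 (Tgfb1 had an adjusted p of 0.021) and 4 of the further lists. The counts are recovered ones, and their SDs measure the spread between the corneas of a strain. Genes at a few reads, such as Gdf10, Bmp5, Gdf15 and Inhba, could not show any but large differences at this depth.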
